A study of Mus musculus with 14 samples.

Results

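SOX10 ChIP regions were examined at 3 genomic windows named for the luminal progenitor genes Elf5, Ehf, Kit and Foxc1, in PY230 mouse mammary tumors. The windows were given in the mm9 build. They were chromosome 2 from 103000001 to 103400000 for Ehf and Elf5, and chromosome 5 from 75750001 to 76250000 for Kit. The last was chromosome 13 from 31700001 to 32100000, given for Foxc1 and Foxq1. Every listed region that overlapped a window by at least 1 base was taken, with no use of its signal. This gave 30 of the 7929 regions in the list (0.378%), of which 14 lay in the Ehf and Elf5 window, 7 in the Kit window and 9 in the Foxc1 window. None of the 3 loci was without a region.

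The series holds 14 ChIPmentation samples, in which adapters are inserted by a transposase into chromatin still bound to beads. The list comes from the 2 PY230 SOX10 ChIP samples set against 1 control sample. PY230 cells, a line from a mammary tumor of the mouse (strain C57BL6J in the labels, adult stage), were transplanted into syngeneic mice, and the resulting tumors were dissected. The precipitated cells carried SOX10-AVI/BirA, that is SOX10 with a tag to which the BirA enzyme attaches biotin, and both they and the control cells were pulled down on streptavidin beads. What the control cells lacked, the promoter driving the tagged protein and its level are not given in the labels. The series' design text speaks of bulk tumors, while the protocol states that tumor cells were isolated by FACS. PY230 is a single transplanted line, and the bound protein was the tagged one. The H3K27ac samples of sorted normal mammary cells, the control on its own and the input of the tumors were not used here.

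Luminal progenitors are the proliferative, hormone receptor-low cells of the mammary luminal layer, from which milk-producing alveolar cells arise. Elf5 and Ehf are related ETS-family transcription factors of epithelia, and Elf5 is known as a driver of alveolar differentiation. Kit is the receptor tyrosine kinase for stem cell factor and a surface marker of luminal progenitors. Foxc1 and Foxq1 are forkhead transcription factors, and Foxc1 is widely used as a marker of basal-like breast cancer. SOX10 is an HMG-box factor that binds short sites with the core ACAATG or ACAAAG, and is best known from the neural crest, where Kit is active in the melanocyte lineage. No RNA was measured in this list, so the activity of these genes in the tumors is not shown by it.

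No gene positions of the mm9 build were used, so a region is assigned to a window and never to a gene. Whether each named gene lies inside its window was therefore not checked, Foxq1 included. Where regions or counts are described below, a gene name stands for its window, not for the gene itself. In the gene order of a RefSeq table of another build (GRCm38.p6), the protein-coding genes Pdhx and Apip precede Ehf, the noncoding RNA genes A930006I01Rik and BC016548 lie between Ehf and Elf5, and Cat follows Elf5. Kit stands between Pdgfra and Kdr, which encode 2 further receptor tyrosine kinases. Foxq1 is followed by Foxf2, a further forkhead gene, then by Foxc1 and then by Gmds.

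The sequences of the regions themselves need the mm9 genome and are not printed. To show what sequence stands just upstream of the named genes, the 250 bases before a RefSeq start site (GRCm38.p6, plus strand, 5′ to 3′) are given for the 3 of 5 genes that were in the promoter table. Capitals mark a match to ACAATG or ACAAAG on either strand. The coordinates belong to GRCm38.p6 and cannot be set against those of the regions.
Elf5, chr2:103411848-103412097: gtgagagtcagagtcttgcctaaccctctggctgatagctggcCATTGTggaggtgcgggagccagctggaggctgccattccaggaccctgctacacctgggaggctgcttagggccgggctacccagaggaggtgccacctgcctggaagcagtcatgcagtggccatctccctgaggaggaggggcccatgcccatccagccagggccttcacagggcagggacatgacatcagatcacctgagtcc
Kit, chr5:75574737-75574986: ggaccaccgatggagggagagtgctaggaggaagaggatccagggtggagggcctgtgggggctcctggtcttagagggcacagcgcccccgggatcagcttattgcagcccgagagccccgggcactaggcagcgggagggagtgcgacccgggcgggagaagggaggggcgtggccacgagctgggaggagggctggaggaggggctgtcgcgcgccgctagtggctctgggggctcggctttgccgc
Foxc1, chr13:31806396-31806645: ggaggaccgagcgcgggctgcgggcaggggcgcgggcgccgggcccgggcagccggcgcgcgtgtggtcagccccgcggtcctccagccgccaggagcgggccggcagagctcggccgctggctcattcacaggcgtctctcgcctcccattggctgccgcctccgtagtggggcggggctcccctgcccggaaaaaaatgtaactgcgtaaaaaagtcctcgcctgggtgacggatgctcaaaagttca

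The search covered 300 bases, 250 before and 50 after the start. Elf5 had 1 match, written CATTGT, the reverse complement of ACAATG, whose first base stands at -207 from the start. A second Elf5 start site, the 2 Kit start sites and Foxc1 had 0 matches. Of all 32851 promoter windows in the table, 28.6% held at least 1 match, so the letters are common in windows of this length and their presence or absence says nothing about binding.

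Each region in the list has a start, an end and a signal. The signal has no stated unit, but signal times width fell on whole multiples of 1 step (0.0479, within 0.05 of a multiple) in 99.9% of 7282 regions. These were the regions under 1500 bp with a signal above 0, and 39.2% of them were multiples of 54 steps. The signal thus behaves like an average read depth over the region, and a region's signal times width is also given below in read equivalents, the units of 54 steps. Read equivalents are a reading of the values rather than a deposited read count, and a control may already have been subtracted. The unit was carried over to the 582 regions of 1500 bp or wider, where the step was not checked. The whole list had a median of 7.50 read equivalents and a median signal of 0.0280 per region. The list is 1 result for both ChIP samples, so no value has a replicate error, library depths are unknown, and the differences below were described and not tested. Intervals are exact at 95% and cover counting error only.

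All 3 windows held many SOX10 regions for their chromosomes, with signals near the middle of the chromosome's range. The loci were chosen with earlier results of these data known. Their counts, ratios and window shares are therefore descriptions and no independent evidence of crowding. At Kit the count rested on closely spaced regions, as described below. The Ehf and Elf5 window stood farthest out. Its 14 regions amounted to 35 per Mb (95% Poisson interval 19.1 to 58.7), against 2.47 per Mb on the rest of chromosome 2, a ratio of 14.2 (7.76 to 23.8). The Kit window held 14 regions per Mb (5.63 to 28.8) against 2.31 on the rest of chromosome 5, a ratio of 6.05 (2.43 to 12.5). The Foxc1 and Foxq1 window held 22.5 per Mb (10.3 to 42.7) against 5.05 on the rest of chromosome 13, a ratio of 4.45 (2.04 to 8.45). Regions lay in groups, so they are not independent and these intervals are too narrow to serve as a test.

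Each window was then set among the windows of the same size that tile its chromosome. On chromosome 2, 45.6% of 441 windows of 400 kb held any region, and the Ehf and Elf5 window was the single window with at least 14 (0.227%, exact binomial interval 0.00574 to 1.26). The next window on that chromosome held 10 regions, and the mean over windows was 1.01. When the tiling was shifted by 200 kb, no window on chromosome 2 reached 14 and the highest count was 12, since the regions were then shared between neighbouring windows. On chromosome 5, 42.9% of 296 windows of 500 kb held any region, and 7 windows including that of Kit held at least 7 (2.36%, interval 0.956 to 4.81). Counts of 8 to 12 were found in 5 of these windows. On chromosome 13, where regions were denser, 55.6% of 286 windows of 400 kb held any region, and 11 held at least 9 (3.85%, interval 1.94 to 6.78). The highest count there was 14, in 2 windows. Neighbouring windows are not independent, so these shares place the loci and are no test.

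**Figure D1:**
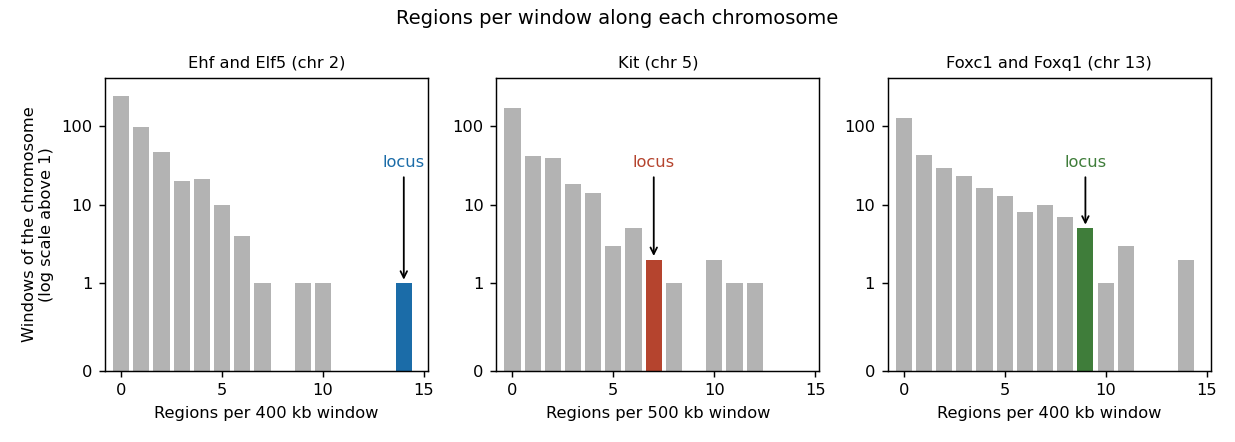
Number of windows (vertical axis, logarithmic above 1) by the number of SOX10 regions in a window (horizontal axis), for the windows of 400, 500 and 400 kb that tile chromosomes 2, 5 and 13; the coloured bar is the count of the gene window. The Ehf and Elf5 window stands alone at 14, while 7 windows on chromosome 5 reach the 7 of Kit and 11 on chromosome 13 reach the 9 of Foxc1.

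The standing of a locus depended on the chromosome it was read against. Among windows of all autosomes, 0.422% of 400 kb windows held at least 14 regions, 1.84% held at least 9, and 5.58% of 500 kb windows held at least 7. Foxc1 thus stood further out against all autosomes than against its own dense chromosome, and Kit less far out. In windows counted from position 0, those with at least 14 regions numbered 8 on chromosome 4, 6 on chromosome 11 and 5 on chromosome 15, and 1 each on chromosomes 6, 8, 10, 13 and 19.

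The 14 regions of the Ehf and Elf5 window spanned 285 kb and thinned out along it. The 4 successive stretches of 100 kb held 5, 5, 3 and 1 region centres. The first region (103017317 to 103018421) was the strongest of all 30, with a signal of 0.0468, at percentile 94.7 of chromosome 2 and with 20.0 read equivalents. It stood apart, 29.1 kb before the next. A group of 3 followed at 103047549 to 103054736. Its first member was the weakest of the 30, at a signal of 0.00988 and 2.00 read equivalents, and its other members, 1958 and 1409 bp wide, had signals of 0.0230 and 0.0294 and 17.4 and 16 read equivalents. A single region of 560 bp at 103066899 had a signal of 0.0231.

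The largest run of the window, in which neighbours were less than 10 kb apart, held 4 regions over 17.4 kb (103108623 to 103126068). Their signals were 0.0374, 0.0348, 0.0287 and 0.0337, all above the chromosome median of 0.0268, and they had 15.3, 15.0, 7.96 and 14.2 read equivalents. A region of 712 bp at 103143262 to 103143973 followed with a signal of 0.0254. After it came the longest gap of the window, 68.2 kb.

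The later part of the window held 4 separate regions. The widest of the 30, 2784 bp at 103228441 to 103231224, had an ordinary signal of 0.0287 but the most read equivalents, 30.9, and no region on chromosome 2 was wider. On either side of it stood 2 narrow regions, of 213 bp at 103212175 and of 208 bp at 103264043, with signals of 0.0243 and 0.0249. Both had only 2.00 read equivalents, so their signals rest on very little. The last region, 521 bp at 103301761 to 103302281, had a signal of 0.0397 (percentile 86.4 of the chromosome) from 8.0 read equivalents. Just outside the window, the nearest regions ended 14.6 kb before it (signal 0.0311) and began 23.4 kb after it (signal 0.0129). The adjoining windows of 400 kb held 3 and 5 regions.

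The Kit window was divided into 2 groups by an empty stretch. A run of 4 regions covered 12.4 kb (75854228 to 75866627). The first of them had a signal of 0.0399 and was separated by 76 bp from the second, 1405 bp wide with a signal of 0.0331. The other members had signals of 0.0263 and 0.0324. The run had 13.6, 18, 9.54 and 9.0 read equivalents, so none of its members was at the low end of the list. No region was listed over the next 269 kb, which included the window's centre.

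Beyond the empty stretch, 3 regions stood in the Kit window. The region at 76135207 to 76136342 had the lowest signal of the locus, 0.0182, at percentile 13.1 of chromosome 5. It was followed after 58.5 kb by a region of 2190 bp (76194852 to 76197041, signal 0.0283) with 24.0 read equivalents. The last, 9.23 kb further on at 76206272 to 76207060, had the highest signal of the locus, 0.0420. The 7 regions were isolated as a set, because the nearest regions outside lay 411 kb before the first and 543 kb after the last. A window of double the size still held 7. These outer gaps stood at percentiles 78.2 and 83.1 of chromosome 5, so gaps of this length were not rare there. When regions less than 10 kb apart were counted once, the Kit count fell to 3, a number that 13.2% of the chromosome's windows reached.

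Of the 9 regions of the Foxc1 and Foxq1 window, 8 lay past its centre. Its first 100 kb held none, and the next stretches of 100 kb held 1, 3 and 4 region centres. The ninth region's centre lay past the window's end. The first region, 1988 bp wide at 31866830 to 31868817, had a signal of 0.0265 and 20.4 read equivalents, and 86.5 kb separated it from the second. The second region, 432 bp at 31955320, had the highest signal of the locus, 0.0419 (percentile 86.9 of chromosome 13), from 7.0 read equivalents. The third, 7.58 kb further on, had the lowest, 0.0162, from 4.0.

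From 31991852 to the end of the Foxc1 and Foxq1 window the regions were mostly wide. The fourth had a signal of 0.0197 over 919 bp, below the lower quartile of the chromosome (0.0199). The fifth, 1447 bp at 32006829, had 0.0360 and 20.1 read equivalents. The sixth (2065 bp at 32046667, signal 0.0301) had 24.1 read equivalents, the most of the locus, and the seventh (1257 bp, signal 0.0308) began 6.57 kb after it. The eighth, at 32097047 to 32097763, had a signal of 0.0354.

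The ninth region of that window (32099897 to 32101385, signal 0.0260) crossed its end. With region midpoints in place of overlap it dropped out, leaving 8. The grouping went on past the window, as the next region (signal 0.0304) followed after 9.23 kb and the adjoining window of 400 kb also held 9, the crossing region included. In contrast, the nearest region before the window lay 256 kb from the first member, and the adjoining window on that side held 3.

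**Figure D2:**
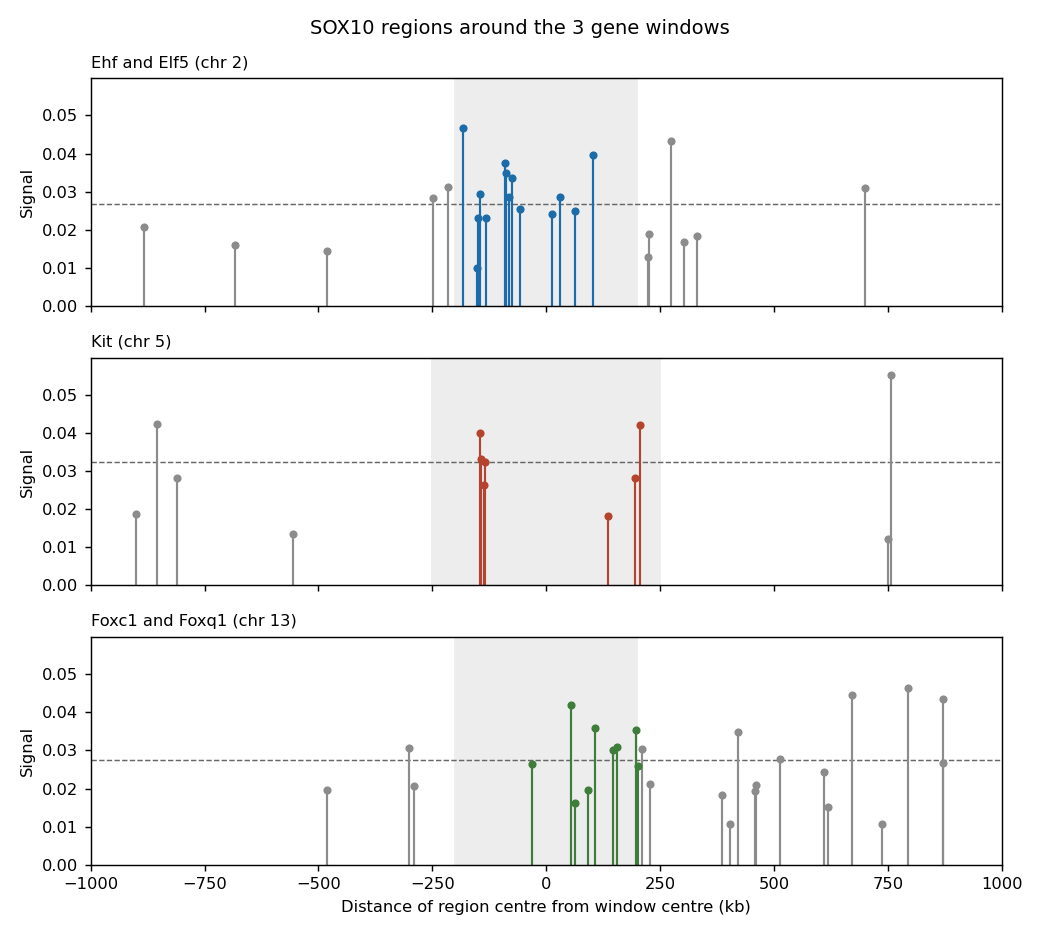
Signal of each SOX10 region (vertical axis, unit not stated) by the distance of its centre from the window's centre in kb (horizontal axis), with regions overlapping the window in colour, other regions in grey, the window shaded and the chromosome's median signal dashed. The Ehf and Elf5 regions thin out to the right, the Kit regions form 2 groups around an empty centre, and the Foxc1 regions continue beyond the right edge of their window.

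Spacing was short at the Ehf and Elf5 window, where 13 of 13 gaps between neighbours were below the chromosome 2 median of 124 kb. Their median was 16.1 kb, at percentile 18.3 of that chromosome's gaps, and 5 of 13 were under 10 kb, against 15% of all gaps on chromosome 2. At Kit the median of 6 gaps was 7.76 kb (percentile 15.2, chromosome median 80.0 kb), and 4 of 6 were under 10 kb against 16.6% on chromosome 5. With the long gaps to the regions outside the window included, the Kit median became 33.9 kb, at percentile 35.2. At Foxc1 and Foxq1 the median of 8 gaps was 21.0 kb (percentile 36.3, chromosome median 47.3 kb), and 3 of 8 were under 10 kb against 24.9% on chromosome 13. The number of regions in a window of fixed size limits how long the gaps can be on average, so count and spacing are not separate observations.

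Signal set the loci apart much less than number. The median signal was 0.0287 at Ehf and Elf5, 1.07 times the median of chromosome 2 and at percentile 57 of its regions. At Kit it was 0.0324, 0.999 times the chromosome 5 median of 0.0325 and at percentile 50. At Foxc1 and Foxq1 it was 0.0301, 1.09 times the chromosome 13 median of 0.0276 and at percentile 55.4. Regions above the chromosome median numbered 8 of 14, 3 of 7 and 5 of 9. Of the 30 regions, 0 reached the 10% of the list with the highest signal (above 0.0481, 10% of all regions by construction), while 6 lay at or above its upper quartile of 0.0374 and 4 at or below its lower quartile of 0.0200. None was listed at a signal of 0.

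The median width was above that of the chromosome at all 3 loci, and with a middling signal the median read equivalents were higher too. The median width was 887 bp at Ehf and Elf5 (range 208 to 2784, chromosome median 675), 937 bp at Kit (717 to 2190, chromosome median 656.5) and 1257 bp at Foxc1 and Foxq1 (432 to 2065, chromosome median 702). All 7 Kit regions were wider than the chromosome median, as were 9 of 14 at Ehf and Elf5 and 7 of 9 at Foxc1 and Foxq1. By construction, about as many regions of a chromosome lie above its median as below, and the Ehf and Elf5 count was not far from that split. Widths there ran from percentile 1.34 to percentile 100 of chromosome 2. Regions of 1500 bp or wider made up 5 of the 30, against 7.34% of the list. Median read equivalents were 11.1, 12.8 and 15.0 at the 3 loci, against chromosome medians of 7.26, 8.28 and 7.24. Of the 30 regions, 4 had under 5 read equivalents (3 at Ehf and Elf5, 1 at Foxc1 and Foxq1), against 29.6% of the list.

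**Figure D3:**
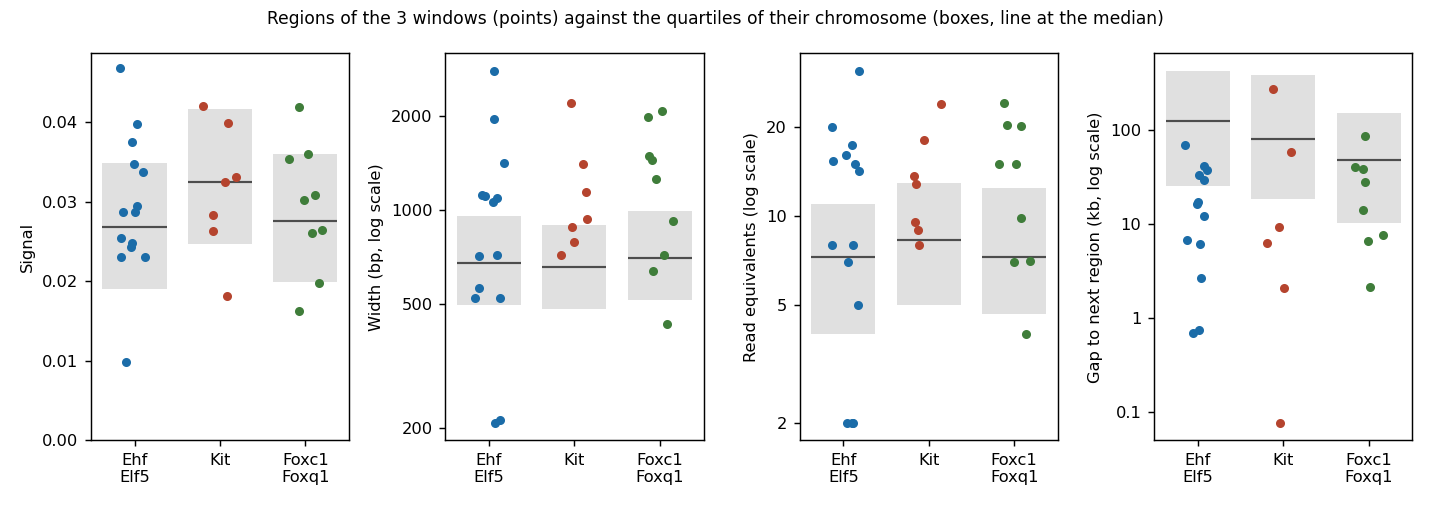
The 30 regions (points, coloured by window) by signal, width in bp, read equivalents and gap to the next region in kb; width, read equivalents and gap are on logarithmic axes, horizontal position within a group is arbitrary, and boxes span the quartiles of all regions or gaps of the same chromosome with a line at the median. Signals straddle the chromosome medians, widths and read equivalents lie mostly above them, and gaps lie mostly below, with the 269 kb gap at Kit as the longest.

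Median width was also above that of the regions in other crowded windows, by the smallest margin at Ehf and Elf5 (887 against 786 bp). On chromosome 2, 17 other windows held at least 5 regions, with a median width of 786 bp and a median signal of 0.0258 over their 100 regions, and 2 of the 17 had a median width as large as that of the Ehf and Elf5 window. On chromosome 5, 14 such windows had a median width of 638 bp and a median signal of 0.0348, and 0 of the 14 reached the median width at Kit. On chromosome 13, 48 such windows had medians of 727.5 bp and 0.0277, and 2 of the 48 reached the median width at Foxc1 and Foxq1. By median signal, 7 of 17, 9 of 14 and 19 of 48 of these windows were at or above the loci.

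Together the regions covered 3.49% of the Ehf and Elf5 window, 1.61% of the Kit window and 2.39% of the Foxc1 and Foxq1 window, against 0.187%, 0.167% and 0.417% of the rest of their chromosomes. The summed read equivalents of the regions, taken whole, were 163 over 13973 bp, 94.9 over 8055 bp and 122 over 10951 bp. By this sum the Ehf and Elf5 window ranked first of 441 on chromosome 2, Kit 3 of 296 on chromosome 5 and Foxc1 5 of 286 on chromosome 13. Without regions under 5 read equivalents the counts were 11, 7 and 8, and the shares of windows with at least as many were 0.227%, 1.35% and 2.80%.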

How the data were processed

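One deposited region list was used, made by the authors from both PY230 SOX10 ChIP samples against the control. Per the submitters' processing notes, FastQC, Bowtie 0.12.8, SAMtools 1.3.1, MACS2 2.1.1 and the build mm9 were used; parameters, the calling threshold, and duplicate handling are not stated in those notes, nor is the formula behind the deposited signal. Coordinates are printed with 1-based starts.

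Regions were counted by overlap of at least 1 base. Background windows of the same size were tiled in step with each locus window between the first and last region of the chromosome. Percentiles are shares of the chromosome's regions or gaps at or below a value. Intervals are exact (Poisson, Clopper-Pearson) at 95%. Python 3.11.15, numpy 2.4.6, pandas 2.3.3 and scipy 1.17.1 were used, and the window counts were tested on simulated data. All 30 regions are reported, and genes are those named by the windows and their neighbours in the RefSeq table. No test was run, since 1 pooled list has no replicates. The loci and lists were chosen with earlier results of these data known. The alternatives were other tilings, backgrounds, subsets and scales, and a limit on read equivalents chosen after seeing the data.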

Additional observations from a re-analysis of the deposited data

How the results depend on the processing

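No paired analysis was possible because both ChIP samples share 1 pooled list without sample values, and leaving out a library was impossible too. Of 63 alternative values, 43 stayed within the interval of the main value (counts within 1.5 times) and 20 moved. For shares and percentiles, that interval counts the windows, regions or gaps of the chromosome. It leaves out the spread among the locus's own regions, so the tally does not measure the uncertainty of a locus value. For the share of windows with at least as many regions, Ehf and Elf5 moved to 0% with windows shifted by 200 kb. The main tiling includes the locus window itself, so its share cannot reach 0%, while the shifted tiling does not include it. Against all autosomes, Kit moved to 5.58% and Foxc1 to 1.84%. Kit moved to 13.2% with regions less than 10 kb apart counted once. That joining lowered the counts to 9 at Ehf and Elf5 and 3 at Kit. Among the 50% of the list with the highest signal the counts were 8 at Ehf and Elf5 and 5 at Foxc1, and a window of double size held 14 at Foxc1; these follow from fewer regions or more sequence. The percentile of the locus signal rose to 75.3, 74.9 and 82.3 at Ehf and Elf5, Kit and Foxc1 with signal times width. It became 88.6 at Ehf and Elf5 and 63.5 at Foxc1 when the highest regions of windows were compared. That comparison depends on count as well as signal, since the highest of many regions was set against windows with few. On chromosome 2, 96 of the 201 windows with a region held 1. Against all autosomes the percentile of the locus signal became 52.0 at Ehf and Elf5 and 62.8 at Kit. The percentile of the median gap became 28.6, 20.2 and 32.3 at the 3 loci against all autosomes, and 35.2 at Kit with outer gaps included. Signal times width takes in the width of the regions, and the values against all autosomes use another reference set. What lies behind the differences in width, signal and spacing was not tested. Regions with 2 to 5 read equivalents limit the ranking of single regions by signal. The limit of 5 read equivalents was chosen after seeing the data.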
